A study of Homo sapiens with 40 samples.

Results

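The comparison described here set PCB 126 at 100 pM, the lowest of the 3 concentrations tested, against the solvent control in differentiated HepaRG cells. It used 10 of the 40 RNA-seq libraries of the series, the 5 labelled as controls and the 5 labelled with this concentration, and no measured value entered this choice. HepaRG is an established human hepatic cell line that, once differentiated, holds hepatocyte-like cells next to biliary-like epithelial cells. The cells came thawed from 1 supplier, and from day 8 to day 14 both groups were kept in the same test medium with serum and DMSO, so that the controls carried the solvent as well. The treated cultures received PCB 126 at 100 pM over these 6 days. The labels do not state whether the 5 libraries of a group came from separate cultures, and the p-values therefore measure only the spread between libraries. Expression is given in FPKM, a level corrected for transcript length and for the size of each library, summed over the transcripts that carry a gene name. Of 56568 gene names, 43478 were above 0 in at least 1 of the 20 libraries of the PCB 126 experiment. Among these, 9755 had a variance of FPKM above 1 over the 20 libraries and were tested. This filter also used the libraries of the higher concentrations, so a gene could pass it through them.

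PCB 126 is a dioxin-like polychlorinated biphenyl. It binds the aryl hydrocarbon receptor (AhR), a ligand-activated transcription factor that rests in the cytoplasm with chaperones, moves to the nucleus when it is bound, pairs with ARNT and attaches to xenobiotic response elements, whose core letters are GCGTG. In hepatocytes this response is known for the induction of cytochrome P450 enzymes of the CYP1 family, and it is damped by AHRR and TIPARP, which are themselves targets of the receptor.

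The promoters of 4 AhR target genes are shown because their windows differ in this core motif, from none to a pair of matches. They come from RefSeq on GRCh38.p14 and cover the 250 bases before the start of the gene, 5′ to 3′ on the strand of the gene. Capitals mark each GCGTG, or CACGC where the motif lies on the other strand. The window of CYP1A1 lies at chr15:74725529-74725778 on the minus strand and the other windows at chr15:74748595-74748844, chr15:100879581-100879830 and chr3:156674340-156674589 on the plus strand.
CYP1A1: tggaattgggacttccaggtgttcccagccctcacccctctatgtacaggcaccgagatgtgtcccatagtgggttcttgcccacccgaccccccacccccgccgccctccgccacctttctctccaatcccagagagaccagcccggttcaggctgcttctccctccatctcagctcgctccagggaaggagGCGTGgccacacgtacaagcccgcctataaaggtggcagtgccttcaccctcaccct
CYP1A2: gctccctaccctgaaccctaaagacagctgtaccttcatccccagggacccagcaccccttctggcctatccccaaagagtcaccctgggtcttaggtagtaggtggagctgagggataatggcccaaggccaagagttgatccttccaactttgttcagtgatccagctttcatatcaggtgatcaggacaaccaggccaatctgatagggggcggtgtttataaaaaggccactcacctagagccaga
ALDH1A3: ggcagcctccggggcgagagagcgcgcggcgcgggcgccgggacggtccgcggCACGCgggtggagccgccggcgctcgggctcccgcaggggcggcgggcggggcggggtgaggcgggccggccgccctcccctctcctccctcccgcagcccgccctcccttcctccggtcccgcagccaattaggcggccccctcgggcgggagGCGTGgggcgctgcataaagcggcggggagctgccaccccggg
TIPARP: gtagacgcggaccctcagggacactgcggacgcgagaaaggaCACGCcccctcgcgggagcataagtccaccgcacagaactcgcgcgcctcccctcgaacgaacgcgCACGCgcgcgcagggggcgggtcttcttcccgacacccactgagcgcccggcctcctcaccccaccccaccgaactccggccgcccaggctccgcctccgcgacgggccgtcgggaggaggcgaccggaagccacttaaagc
The CYP1A1 window holds 1 match, which begins 57 bases before the start of the gene, and the CYP1A2 window holds none. The matches of ALDH1A3 begin 197 and 43 bases before its start, and those of TIPARP 208 and 142 bases before. Of the 18 AhR target genes with a promoter in the table, 11 (61.1%) held the motif on either strand and 4 (22.2%) held it at least 2 times, with the most, 3, in STC2. Among all 35116 promoters of the table, which were not limited to tested genes, 32.2% held it and 10.2% held it at least 2 times. The AhR complex list, of the receptor, its partners and its chaperones, had 5 genes with a promoter in the table. Of these, 3 held the motif and 0 held it at least 2 times. Holding the motif thus did not set the targets apart from that small list, and the shares were not tested. A match describes these letters only and is not evidence of binding.

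The libraries differed in overall level within both groups. The 75th percentile of FPKM over genes was 1.75 ± 0.504 (SD, n = 5) in the controls and 1.83 ± 0.291 at 100 pM (2-sided exact permutation test, p = 0.794, over 252 splits, whose smallest p is 0.00794). Control replicate 5 was the lowest library at 0.965 and held the lowest control value for 8178 of the 9755 genes (83.8%), and 100 pM replicate 5 was the lowest of its group at 1.46. The first principal component carried 39.5% of the variance and the groups overlapped on it (exact permutation p = 0.754), whereas control replicate 5 lay at -69.5 on it and every other library between -22.2 and 28.6. None of the 4 marker sums differed beyond the spread between libraries by exact permutation test, with hepatocyte markers at 19400 and 20800 FPKM (p = 0.603), biliary and progenitor markers at 447 and 443 (p = 0.976), mesenchymal markers at 93.6 and 105 (p = 0.460), and endothelial and leukocyte markers at 11.1 and 10.2 (p = 0.730) in the control and 100 pM groups. Albumin was at 11210 ± 1483 FPKM in the controls and the biliary keratin KRT19 at 303 ± 85.6. These are single markers of hepatocyte-like and biliary-like cells, picked after their values were seen. Of the 18 hepatocyte markers 17 passed the filter, and of the 12 biliary and progenitor markers 6 did. Of the endothelial and leukocyte markers, CDH5 and PTPRC were at or near 0. KDR of the same list was at 2.27 ± 1.63 FPKM in the controls, so that list was not absent as a whole. These are bulk libraries, in which fewer cells of a type and less RNA per cell cannot be told apart. Because of the low replicates 5, results are given with and without scaling of each library to its 75th percentile.

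No gene was called at 100 pM with either scaling, at a Benjamini-Hochberg adjusted p under 0.05 in limma, which makes the share called 0% of 9755 genes. At an unadjusted p under 0.05, 82 genes (0.841%) were higher and 34 (0.349%) lower than in the controls without scaling, and 96 (0.984%) and 104 (1.07%) with scaling. Both directions together, these shares lay under the share of genes that such a threshold passes by chance on average. The smallest adjusted p was 1.0 without and 0.645 with scaling. The unscaled values leaned upward, with a median log2 difference of 0.07 and 71.5% of genes above 0, and scaling moved the median to -0.015 and the share to 44.6%. The upward lean came with control replicate 5, since the median was -0.08 without that library. A median standard error of 0.29 on the log2 scale (0.19 scaled) gives the precision of this fit. Its spread was estimated over all 20 libraries, so those at 10 nM and 1 µM also entered its standard errors and p-values. With only the 10 compared libraries in the fit, 179 genes unscaled and 389 scaled had an unadjusted limma p under 0.05, and none was called.

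The AhR target genes were the list that stood farthest from all genes. Of its 22 genes, 17 passed the filter, and 16 of them had a higher mean at 100 pM (15 scaled). Without adjustment, 6 of 17 had a p under 0.05 and were higher, beside 0.841% of all tested genes, and 0 were lower. Their median log2 difference was 0.74 (0.64 scaled) against 0.07 (-0.015 scaled) for all tested genes. The 6 genes were CYP1A1, CYP1A2, CYP1B1, ALDH3A1, ALDH1A3 and STC2, and each had an adjusted p of 1.0 in limma. With scaling CYP1B1 had an unadjusted p of 0.093, and AREG and EREG came under 0.05, which made 7. ALDH1A3, AREG and EREG averaged 6.48, 3.53 and 4.91 FPKM at 1 µM, above both compared groups. They could have passed the filter through such libraries, so the counts depend on it. With every gene above 0 tested, 5 of 22 targets were higher at an unadjusted limma p under 0.05 (7 scaled). In that setting 1077 of 43478 genes (1173 scaled) passed, both directions together. The list was chosen with earlier results of these data known, and these counts describe it without a test.

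CYP1A1, a monooxygenase of planar aromatic compounds on chromosome 15 (GRCh38, chr15:74719542-74725610), was at 7.69, 3.76, 0.175, 0 and 0 FPKM in control replicates 1 to 5 and at 70.9, 36.4, 3.21, 1.09 and 319 FPKM at 100 pM. Replicates 1, 2 and 5 of the treated group stood above every control, while replicates 3 and 4 lay inside the control range. The log2(FPKM + 1) difference was 3.45 ± 0.91 (SE; unadjusted limma p = 0.00085), the largest of all tested genes, and the exact permutation p was 0.0556. Without 100 pM replicate 5, the difference was 2.51.

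CYP1A2, its neighbour on the same chromosome (chr15:74748844-74756202) and an enzyme of caffeine and arylamine oxidation, was at 1.12, 1.73, 1.32, 0.497 and 0.246 FPKM in the controls. At 100 pM it was at 15.9, 11.6, 1.98, 1.85 and 208 FPKM. All 5 treated values lay above all 5 control values, with and without scaling, which was so for 11 genes (0.113%) upward without scaling and 20 (0.205%) with it. The groups were closest in replicates 3 and 4, whose values exceeded the highest control by little. The log2 difference was 2.78 ± 0.76 (SE), the exact permutation p 0.00794, the smallest this design allows, and the adjusted p in limma 1.0. Without 100 pM replicate 5 the difference was 1.78. Random labels separate a gene fully, in either direction, with a probability of about this smallest p. The separated genes of both directions together were a smaller share of the tested genes, with and without scaling.

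CYP1B1, the third CYP1 enzyme (chr2:38066973-38109902), was expressed in every control, at 25.1, 15.4, 12.2, 11.6 and 7.47 FPKM. At 100 pM it was at 53.1, 28.6, 20.2, 30.6 and 37.9 FPKM, with 4 of 5 treated libraries above the highest control. Its log2 difference was 1.22 ± 0.53 (SE) and the exact permutation p was 0.0159.

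Both aldehyde dehydrogenases of the list were higher on average. ALDH3A1, which oxidises aromatic and medium-chain aldehydes (chr17:19737984-19748943), was at 136, 140, 160, 103 and 64.6 FPKM in the controls and at 192, 211, 174, 161 and 315 FPKM at 100 pM. The groups did not overlap, although the lowest treated library, replicate 4, lay close to control replicate 3. Its log2 difference was 0.82 ± 0.28 (SE; exact permutation p = 0.00794), and with scaling the groups overlapped. ALDH1A3, an enzyme of retinoic acid synthesis whose promoter holds the motif in a pair of places, was low throughout. It was at 0.734, 1.11, 0.738, 0.406 and 0.189 FPKM in the controls and at 2.03, 1.72, 0.998, 1.74 and 2.83 FPKM at 100 pM. Only treated replicate 3 fell inside the control range, and after scaling no value did. The log2 difference was 0.80 ± 0.27 (SE; exact permutation p = 0.0159 unscaled and 0.00794 scaled).

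**Figure D1:**
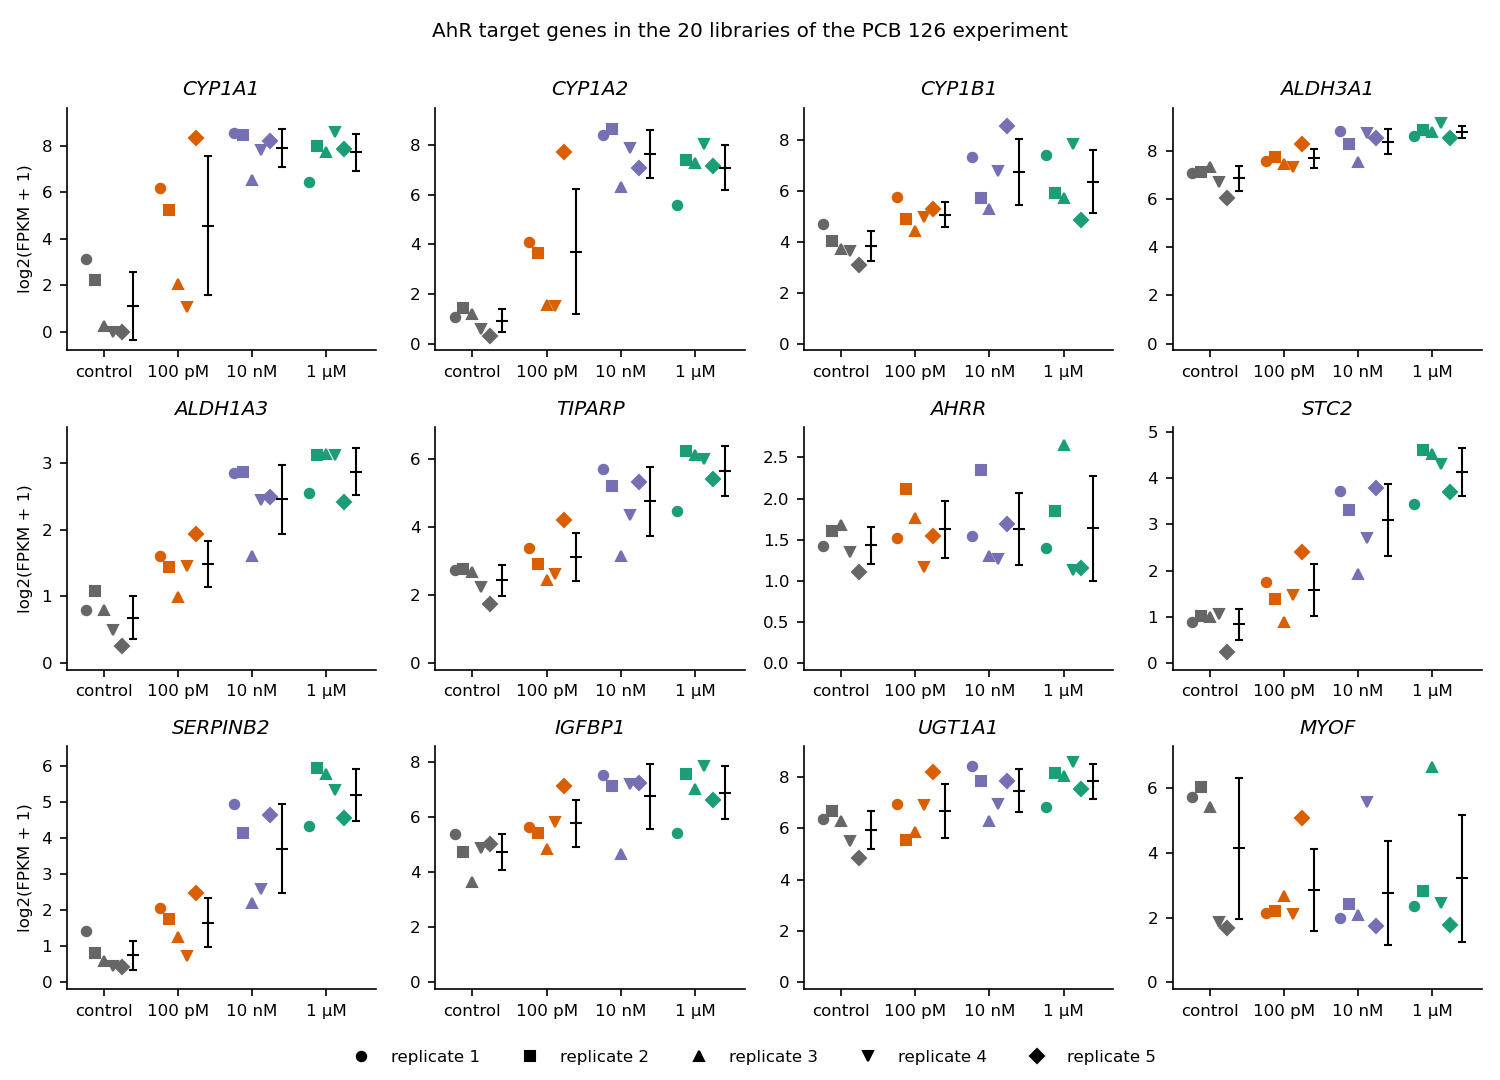
Level of 12 AhR target genes on a log2(FPKM + 1) axis in each of the 20 libraries of the PCB 126 experiment, by concentration, with 1 marker shape per replicate number and black bars for the mean ± SD of 5 libraries. At 100 pM the CYP1A1 and CYP1A2 values spread from near the controls to the level of the higher concentrations, which replicate 5 reached (319 and 208 FPKM).

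Of the feedback regulators, TIPARP, a mono-ADP-ribosyltransferase that damps AhR activity, was at 5.64, 5.84, 5.39, 3.75 and 2.30 FPKM in the controls and at 9.46, 6.58, 4.37, 5.13 and 17.5 FPKM at 100 pM. Replicates 1, 2 and 5 exceeded every control. Its log2 difference of 0.68 ± 0.42 (SE) did not stand out from the spread (exact permutation p = 0.111). AHRR, the AhR repressor that competes for ARNT, was at 1.73 ± 0.418 and 2.16 ± 0.781 FPKM in the control and 100 pM groups (log2 difference 0.19 ± 0.29 SE, exact permutation p = 0.333). The AHRR values thus overlapped widely.

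The 5 secreted factors described here were higher on average at 100 pM, and all but IGFBP1 were low. STC2, a glycoprotein hormone of calcium and phosphate handling, was at 0.852, 1.02, 0.989, 1.08 and 0.176 FPKM in the controls and at 2.38, 1.62, 0.853, 1.76 and 4.31 FPKM at 100 pM (log2 difference 0.74 ± 0.34 SE, exact permutation p = 0.0318). Treated replicate 3 was the only one inside the control range. SERPINB2, an inhibitor of plasminogen activators, had a log2 difference of 0.91 (exact permutation p = 0.0476), with treated values from 0.659 to 4.57 FPKM and control values from 0.353 to 1.71. IGFBP1, which binds insulin-like growth factors, was at 27.5 ± 10.5 FPKM in the controls and at 48.7, 42.3, 27.4, 55.2 and 140 FPKM at 100 pM, a log2 difference of 1.04 (exact permutation p = 0.0397 unscaled and 0.159 scaled). The epidermal growth factor receptor ligands AREG and EREG had log2 differences of 0.45 and 0.60 (exact permutation p = 0.0238 and 0.0159). The groups overlapped for each of these 5 genes.

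None of the remaining tested members passed an unadjusted p of 0.05. UGT1A1, which conjugates bilirubin, was at 66.1 ± 29.4 and 125 ± 96.9 FPKM (log2 difference 0.74, exact permutation p = 0.238). UGT1A6, a phenol glucuronosyltransferase, was at 95.5 ± 38.3 and 98.3 ± 43.5 FPKM (log2 difference 0.01). The UGT1A genes share their 3′ exons, so StringTie may divide their reads unevenly and their separate values are uncertain. The antioxidant regulator NFE2L2 had a log2 difference of 0.29 (exact permutation p = 0.206). MYOF, a membrane repair protein, was the only tested target with a negative difference, -1.30, and this value depended on how the gene was summed: the unnamed transcripts of its locus brought it to 0.20. NQO1, SLC7A5, LRAT, XDH and SCIN did not pass the filter. NQO1 was at 2.58 ± 1.06 and 2.76 ± 0.758 FPKM, and the other 4 had group means between 0.466 and 1.12 FPKM by gene name. Unnamed transcripts changed this for SLC7A5, whose sums were 0.86 and 1.84 FPKM in the control and 100 pM groups (exact permutation p = 0.0397). By name SLC7A5 was lower at 100 pM. For LRAT the sums were 61.2 ± 29.3 and 36.8 ± 10.8 FPKM (exact permutation p = 0.294).

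The receptor and its complex showed no difference beyond the spread between libraries. AHR was at 64.1 ± 14.5 FPKM in the controls and 63.0 ± 9.86 at 100 pM. Its partner ARNT was at 6.01 ± 0.596 and 6.41 ± 2.12 FPKM. None of the 7 genes of the list, which also holds ARNT2 and the chaperone genes HSP90AA1, HSP90AB1 and PTGES3, had an unadjusted p under 0.05. Their log2 differences ran from -0.01 to 0.20, with a median of 0.09. The 95% confidence intervals of the fit of all 20 libraries reached from -0.72 to 1.09, so smaller shifts were not detectable in that fit.

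The target genes moved together by library. In 100 pM replicate 5, 12 of the 17 tested targets (70.6%) had their highest treated value, whereas this library held the highest treated value for 255 of all 9755 genes (2.61%). The median of the 17 genes, as log2 level above the control mean, was 0.90, 0.55, 0.32, 0.33 and 1.44 in 100 pM replicates 1 to 5. Over all tested genes the same median was -0.07, 0.22, 0.19, 0.22 and -0.17. The target genes were thus lowest in replicates 3 and 4, where all genes were among the higher, and highest in replicate 5, where all genes were lowest. Among the controls, replicates 1 and 5 were at 0.29 and -0.61 for the targets and at 0.24 and -0.60 for all genes. Without 100 pM replicate 5, the median difference of the 17 genes was 0.50 and 4 were higher at an unadjusted p under 0.05, and with scaling the median was 0.39, with 4 higher and 1 lower. Without control replicate 5, the median was 0.54 with 4 higher, and with scaling 0.59 with 7 higher. With array weights, which give less weight to divergent libraries, the unscaled median was 0.40, with 8 higher and 1 lower.

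**Figure D2:**
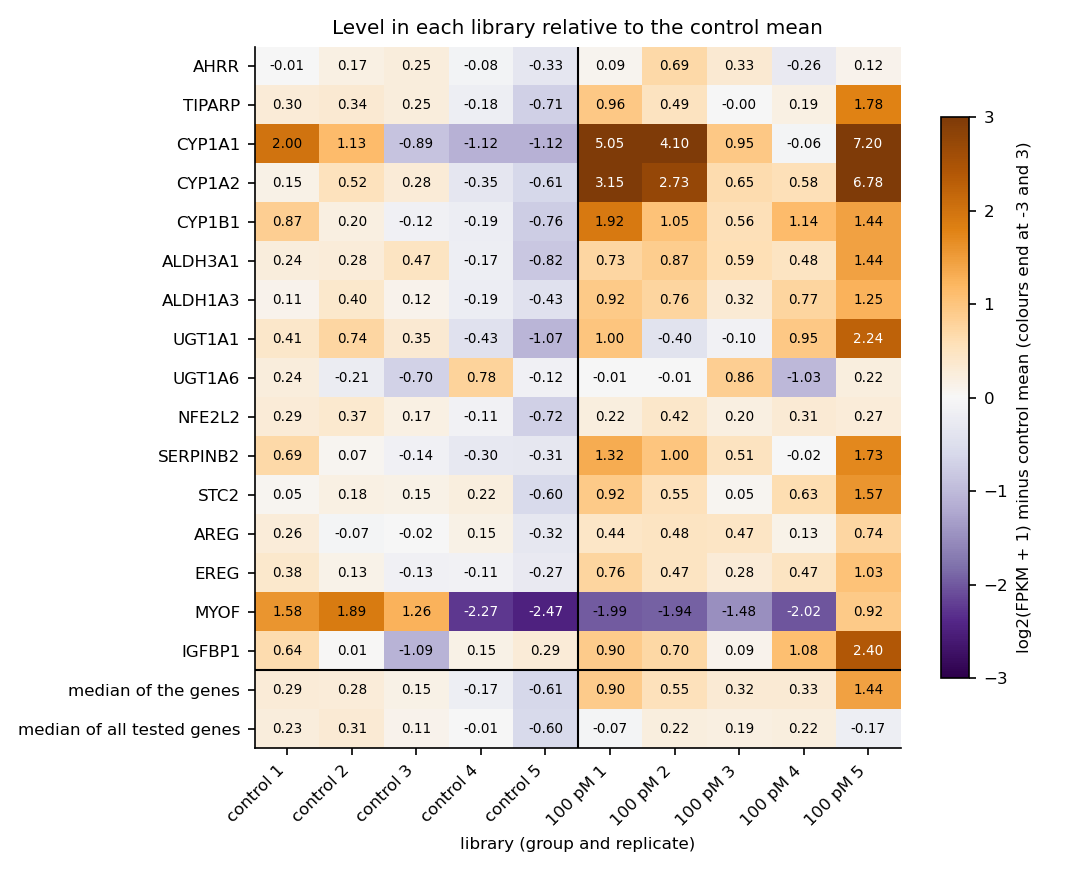
Heat map of 16 of the 17 tested AhR target genes in the 10 libraries compared, as log2(FPKM + 1) minus the control mean of the gene, with the median of the 17 genes and of all tested genes in the lowest 2 rows. Colours end at -3 and 3. The 100 pM medians of the target genes run from 0.32 to 1.44, and those of all tested genes from -0.17 to 0.22.

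The higher concentrations, which were compared with the same 5 control libraries, give the range of the response. The median log2 difference of the 17 targets was 0.74 at 100 pM, 1.52 at 10 nM and 1.93 at 1 µM, and the median of all tested genes was 0.07, -0.21 and -0.26. The number of targets called higher was 0, 8 and 12 of 17, beside 0.144% of all tested genes called higher at 10 nM and 0.646% at 1 µM. CYP1A1 averaged 86.2 FPKM at 100 pM, 268 at 10 nM and 235 at 1 µM, with log2 differences of 3.45, 6.80 and 6.61. CYP1A2 had log2 differences of 2.78, 6.73 and 6.16, and TIPARP of 0.68, 2.32 and 3.21. AHRR had 0.19, 0.20 and 0.21. Because the controls are shared, these differences are not independent of each other.

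Outside the target list, SLC37A2, a sugar-phosphate exchanger of the endoplasmic reticulum (chr11:125063067-125090312), showed a like pattern. It was at 2.69, 2.95, 2.97, 2.82 and 1.46 FPKM in the controls and at 7.94, 6.19, 3.89, 4.41 and 7.25 FPKM at 100 pM. No treated library reached down into the control range, with or without scaling. The log2 difference was 0.94 ± 0.34 (SE; exact permutation p = 0.00794, adjusted limma p = 1.0). It was 2.27 at 10 nM and 3.60 at 1 µM, both with an adjusted limma p under the threshold (0.00127 and 1.18e-06).

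Across the 28 gene lists no member was called. Of the 27 lists other than the AhR targets, 23 held no gene with an unadjusted p under 0.05 and 4 held 1 each, without scaling. The medians of these 27 lists lay between -0.02 and 0.20 unscaled and between -0.10 and 0.12 scaled, close to the medians of all genes. With scaling, 13 of the 27 held such a gene.

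In lipid metabolism, the 8 tested genes of polyunsaturated fatty acid synthesis had a median of 0.10 (-0.004 scaled), the 18 of lipogenesis 0.03 (-0.07 scaled) and the 23 of cholesterol synthesis 0.12 (0.02 scaled), with no gene at an unadjusted p under 0.05 unscaled. FADS3, a desaturase-like protein, was at 18.7 ± 8.28 and 20.99 ± 1.995 FPKM and MLXIPL, the carbohydrate response factor of lipogenesis, at 4.79 ± 2.22 and 6.82 ± 1.23 FPKM. INSIG1, the sterol sensor partner, was at 35.0 ± 8.29 and 22.6 ± 18.5 FPKM, but level once unnamed transcripts were added (47.2 and 46.2). Fatty acid oxidation had a median of 0.14 over 19 genes. Its 1 gene under the unadjusted threshold was ACSL1, which activates long-chain fatty acids, at 26.4 ± 6.71 and 52.5 ± 17.2 FPKM, and at 57.9 and 64.1 with unnamed transcripts added. Among 18 sphingolipid genes (median 0.04), UGCG, the enzyme that makes glucosylceramide, was at 25.7, 25.8, 18.3, 17.5 and 10.8 FPKM in the controls. At 100 pM it was at 33.5, 33.2, 25.1, 23.3 and 36.9 FPKM. Treated replicates 1, 2 and 5 lay above all controls (log2 difference 0.65, exact permutation p = 0.0476), and the differences at 10 nM and 1 µM were 1.31 and 1.64. Bile acid genes had a median of 0.18 over 14 genes. CYP7A1, the first enzyme of bile acid synthesis, was at 1.26 ± 0.340 and 2.18 ± 1.34 FPKM.

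Among enzymes of detoxification and redox control, the 12 glucuronosyltransferases had a median of 0.13, and UGT1A3 had no overlap between the groups after scaling (1.35 ± 0.672 and 2.23 ± 0.204 FPKM unscaled, scaled exact permutation p = 0.00794), within the uncertainty of the UGT1A locus. The 16 other CYP enzymes had a median of 0.05 (-0.04 scaled), with CYP2C19 at 3.70 ± 1.08 and 2.73 ± 1.25 FPKM. The 17 tested NRF2 targets had a median of 0.18, and 16 of them were above 0, beside 71.5% of all genes. SRXN1 and SLC7A11, which reduce peroxiredoxins and import cystine, were at 54.1 and 71.2 and at 11.99 and 17.2 FPKM. Both had an unadjusted p under 0.05 only with scaling. The taurine, cysteine and methionine enzymes (14 genes, median 0.12) included GCLM of glutathione synthesis at 30.8 ± 7.92 and 39.7 ± 5.54 FPKM. KYNU, the kynureninase of tryptophan breakdown, was at 4.71 ± 2.46 and 8.72 ± 2.73 FPKM (log2 difference 0.83, exact permutation p = 0.0556) in a list of 6 genes with a median of 0.14. The haem and bile pigment enzymes had a median of 0.17 over 11 genes, with ALAD, of haem synthesis, at 14.2 ± 4.09 and 19.9 ± 3.01 FPKM. The 3 tested metallothioneins had a median of 0.03, with MT1X at 5.18 and 5.19 FPKM.

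The medians of the other processes lay as close to that of all genes. Gluconeogenesis and the urea cycle had a median of 0.20 over 10 genes, with arginase ARG1 at 2.55 ± 0.490 and 3.95 ± 1.34 FPKM. Glycolysis and HIF-1 targets had 0.11 over 20 genes, with the glucose transporter SLC2A1 at 9.25 ± 3.93 and 12.6 ± 2.00 FPKM. The stress response list had 0.07 over 18 genes, with DDIT3 at 4.55 and 6.42 FPKM, and the cell cycle list 0.09 over 21 genes, with CDC20, an activator of anaphase, at 5.52 and 8.73 FPKM. In the matrix list (15 genes, median 0.11), MMP2, a gelatinase, was at 7.79, 9.14, 7.59, 9.18 and 4.46 FPKM in the controls and at 10.6, 10.8, 9.41, 11.7 and 12.4 FPKM at 100 pM. All treated values lay above all control values, by a narrow margin in replicate 3, and overlapped them after scaling (exact permutation p = 0.00794 unscaled and 0.0318 scaled). The interferon-stimulated genes had the lowest median, -0.02 over 15 genes (-0.10 scaled). IRF9, a subunit of the interferon-activated factor, was at 5.65 ± 1.22 and 3.46 ± 1.23 FPKM (exact permutation p = 0.0318). The acute phase list had 0.10 over 19 genes, with HP, haptoglobin, at 734 ± 837 and 999 ± 851 FPKM. Among lists of library composition, the mitochondrial messengers had 0.11 over 11 genes and the abundant structural RNAs 0.06 over 11. MT-ATP8 was listed at 0 in 3 controls and averaged 3.01 FPKM at 100 pM, and the mitochondrial ribosomal RNA MT-RNR1 ran from 0 to 372 FPKM in the controls. The lists of hepatocyte, biliary, mesenchymal and endothelial or leukocyte markers had medians of 0.14, 0.06, 0.11 and 0.07 over 17, 6, 7 and 3 genes, with MUC1 at 1.28 and 1.99 FPKM, LUM at 50.2 and 64.0, and KDR at 2.27 and 1.50.

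**Figure D3:**
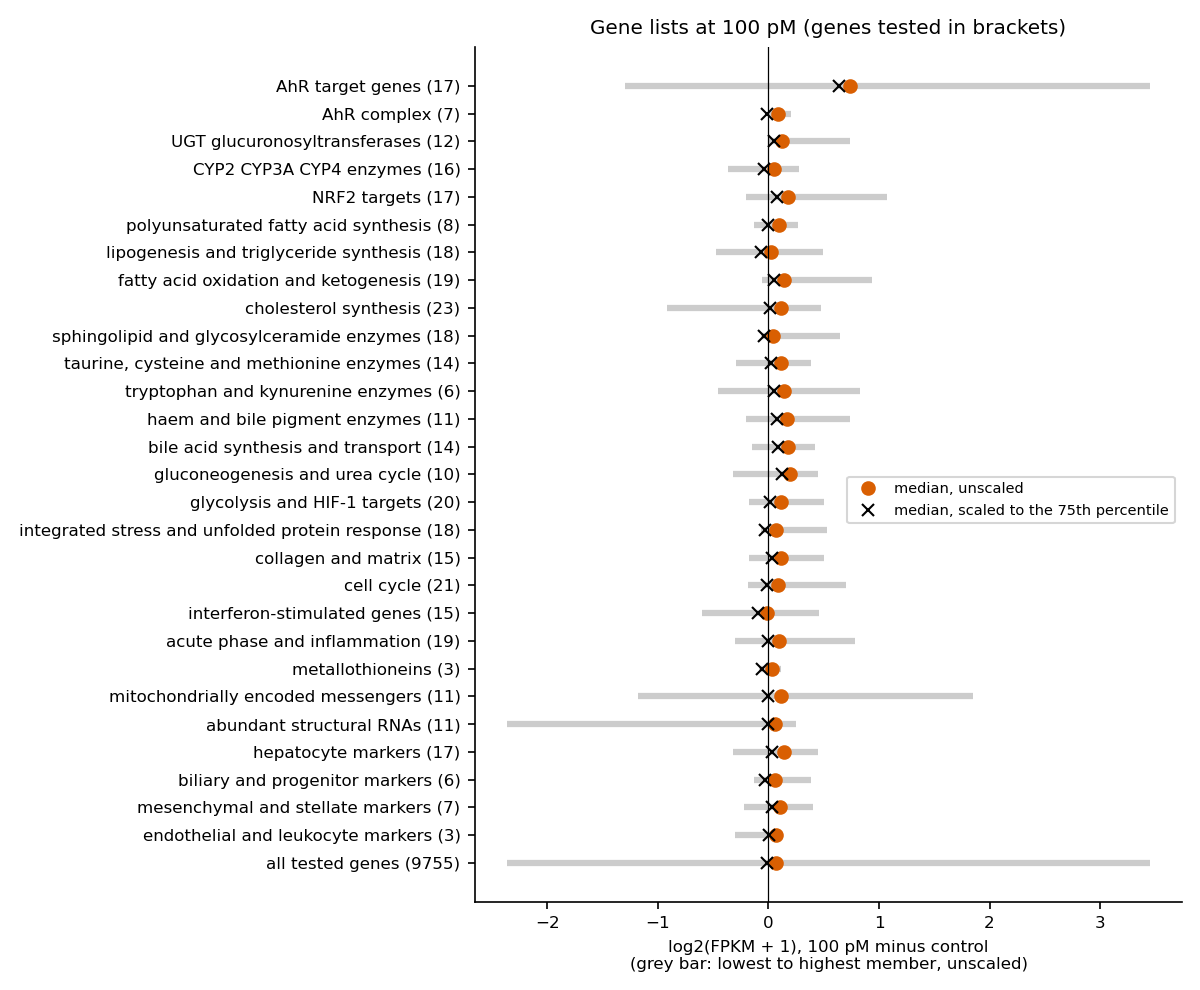
Median log2(FPKM + 1) difference, 100 pM minus control, of 28 gene lists and of all 9755 tested genes, without scaling (dots) and with scaling to the 75th percentile (crosses). Grey bars run from the lowest to the highest member. The AhR target genes lie at 0.74 and 0.64, and the other lists between -0.10 and 0.20.

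Many genes with a small p outside the AhR list had unnamed transcripts in their locus. StringTie assembled 35782 transcripts without a gene name, and the gene sums leave these out. Of the 116 genes with an unadjusted p under 0.05, 101 (87.1%) had such transcripts in their locus, beside 55.3% of all tested genes. In 88 of the 101 (87.1%) the unnamed transcripts differed in the opposite direction, beside 66.9% of all tested genes that had any. When these transcripts were added, an alternative chosen after seeing the data, the difference shrank to under 50% of its size in 76 of the 101 genes that had any (75.2%), beside 47.8% of all such genes. The 116 genes were selected for their differences by name, so these shares describe them without a test. ERO1A, an oxidase of protein folding, was at 19.7, 19.3, 18.8, 18.2 and 11.2 FPKM in the controls and at 1.85, 3.61, 20.1, 2.97 and 2.70 FPKM at 100 pM. Its difference was -1.78 by gene name and -0.37 with the unnamed transcripts, which made the sums 20.99 ± 4.19 and 16.7 ± 6.03 FPKM. EHD2, a protein of caveolae, had a difference of -1.08 by name (60.3 ± 19.5 and 27.9 ± 9.19 FPKM). Its unnamed transcripts were listed at 0 in all 5 controls and at 15.9, 30.8, 50.3, 30.2 and 21.5 FPKM at 100 pM, and the sum differed by -0.02. RHOA, a small GTPase, was at 21.95 ± 14.4 and 56.8 ± 31.8 FPKM by name and at 113 and 102 FPKM in sum. The zinc finger gene ZNF281 was at 4.24 and 14.1 FPKM by name and at 12.1 and 14.1 in sum.

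Other genes at the head of the p ranking had unnamed transcripts as well. The log2 difference by name and with unnamed transcripts was 1.67 and 0.19 for CEP55, a cytokinesis protein. It was -1.89 and -0.11 for the scavenger receptor SCARA3. RABGAP1, which acts on Rab GTPases, had -1.48 and 0.07. VWA8 had -0.96 and 0.05. NEO1, a netrin receptor, had 1.29 and 0.11, RACGAP1 1.39 and 0.16, CBFA2T2 -0.99 and -0.13, and LAMA4, a laminin chain, -0.89 and -0.10. The zinc transporter SLC39A1, at 8.11 ± 8.00 and 16.1 ± 4.55 FPKM, had 1.41 and 1.04. With these transcripts added, the difference was 3.55 for CYP1A1 and 1.46 for CYP1B1. CYP1A2, ALDH3A1, ALDH1A3 and STC2 had none in the 10 libraries, so their values could not move. In the scaled ranking PARP8 (-0.64 scaled), the phosphatase PTPN18 (-0.45) and CBWD3 (0.42), a gene with near-identical copies whose value is uncertain, came to the head as well.

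**Figure D4:**
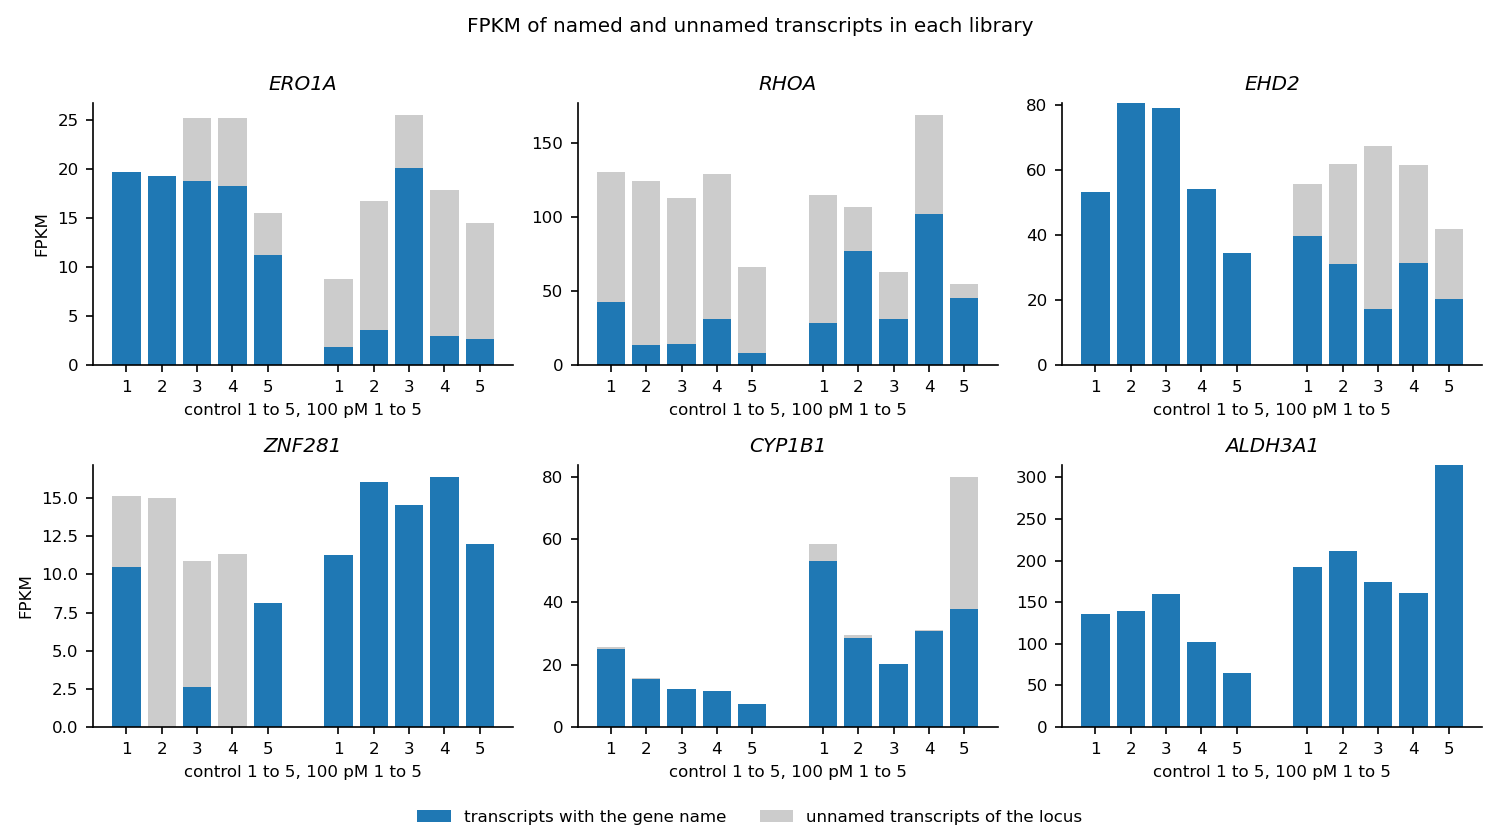
FPKM in control replicates 1 to 5 and 100 pM replicates 1 to 5, stacked as transcripts with the gene name (blue) and unnamed transcripts of the same locus (grey). For ERO1A, RHOA, EHD2 and ZNF281 the split between both kinds differs between groups more than their sum, and ALDH3A1 has no unnamed transcript.

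Without overlap between groups, 16 genes stood apart by name, 11 higher and 5 lower (0.0513% of tested genes). With scaling 30 were lower (0.308%). Both directions together, such genes were a smaller share than random labels give on average, with and without scaling. With unnamed transcripts added, 8 genes (0.0742% of 10780 tested) were higher without overlap and 6 (0.0557%) lower, and 7 of the 16 genes remained. Of these 7, 4 had no unnamed transcript and could not move, among them CYP1A2, ALDH3A1 and MMP2. SLC37A2, which had some, also remained. The lower genes that remained, both with under 0.5 FPKM of unnamed transcripts in each library, were RAD50, of DNA break repair, at 13.6 ± 1.78 and 10.1 ± 1.19 FPKM, and RPTOR, the mTORC1 scaffold, at 9.09 ± 1.52 and 6.70 ± 0.369 FPKM. Those that did not included MEMO1 (1.11 by name and 0.23 in sum), NRXN3 (1.03 and 0.20), NRAS (0.78 and 0.03), TBC1D8B (0.77 and -0.03), PDS5B (-0.43 and -0.14) and SNORD17, a small nucleolar RNA whose control mean rested on 37.2 FPKM in control replicate 5.

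**Figure D5:**
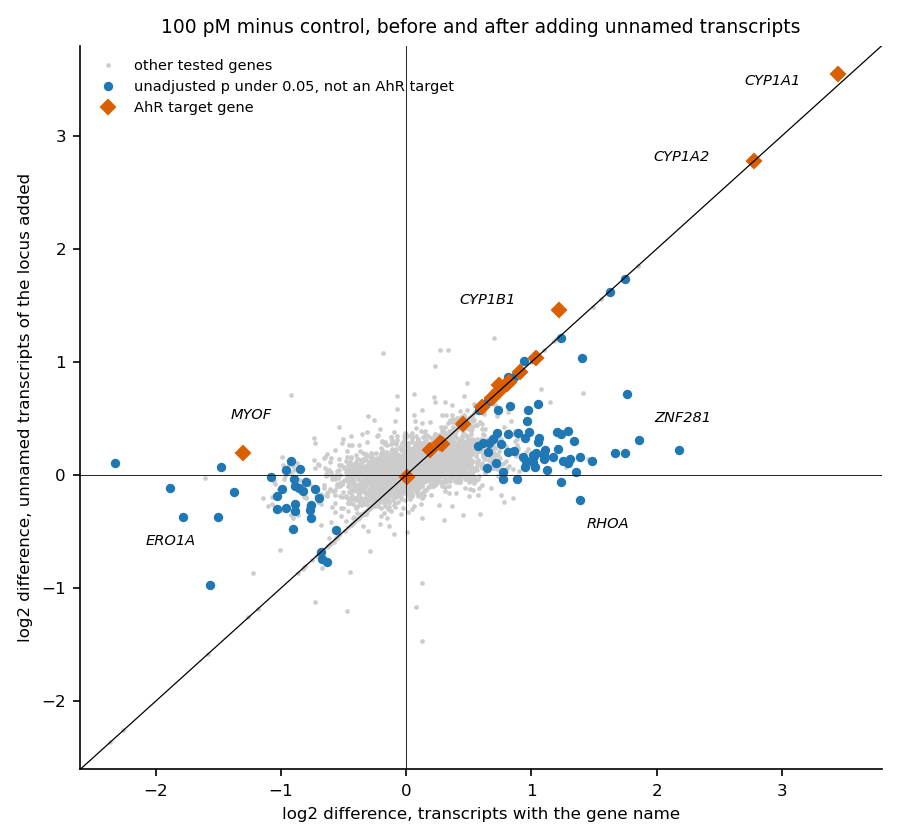
Log2 difference at 100 pM of 9613 genes by gene name (horizontal axis) and with the unnamed transcripts of the locus added (vertical axis), with equality as a diagonal line. Of the genes with an unadjusted p under 0.05, 104 that are not AhR targets (blue) include many close to 0 on the vertical axis, and CYP1A1 and CYP1B1 lie at 3.55 and 1.46. CYP1A2, at 2.78 on both axes, had no unnamed transcript.

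When each transcript was tested in place of the gene sums, 1 of 21181 was called (Benjamini-Hochberg adjusted p = 0.0485 from limma over all transcripts tested). It is an unnamed transcript of 22 exons on the plus strand (chr2:128091194-128157346) at the locus of UGGT1, a glucosyltransferase of glycoprotein quality control. It was listed at 0 in all 5 controls and at 5.15, 16.1, 9.92, 11.2 and 7.75 FPKM at 100 pM, and it was above 0 in only 2 of the 10 libraries at the higher concentrations. The other unnamed transcript of the locus was at 7.55 ± 4.94 and 3.65 ± 3.25 FPKM and the 7 transcripts named UGGT1 at 12.6 ± 3.70 and 11.2 ± 1.97 FPKM. The locus as a whole was at 20.2 ± 6.07 and 24.9 ± 2.93 FPKM, a log2 difference of 0.33 (exact permutation p = 0.206).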

How the data were processed

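Per the file headers and the methods of the study, the authors aligned rRNA-depleted directional read pairs to GRCh38 with HISAT2, quantified Ensembl and newly assembled transcripts with StringTie, and deposited FPKM for 234960 transcripts in 20 libraries without scaling between libraries. Deposited columns with values below 0 were treated as a score, and their 4 negative values were set to 0. FPKM are not counts and do not hold the read depth of a library or its counting error, so no count test was used. The study reports a range of read numbers per sample, which did not enter the fits. Replicates were numbered in the order of the library numbers in the labels.

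FPKM were summed per gene name (35782 transcripts have none). limma 3.58.1 in R 4.3.3 was fitted to log2(FPKM + 1), a scale that understates the differences of low genes. The fit held all 20 libraries, with 1 estimate of spread per gene shared by the 4 groups. It covered 9755 genes with a variance above 1 over these libraries, with Benjamini-Hochberg adjustment at 0.05. The scaled fit divided each library by its 75th percentile. Single values were compared with 2-sided exact permutation tests (Python 3.11.15, numpy 2.4.6, pandas 2.3.3, scipy 1.17.1, matplotlib 3.10.9), and the fit was tested on simulated data. The exact p-values of the 80 genes covered by the rule below are not adjusted. In the alternative sums, 18624 unnamed transcripts were added to the gene whose locus and strand they overlap, 3331 of them to more than 1 gene.

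Named genes were the AhR target and AhR complex lists, the 12 smallest p of each fit, the 8 largest differences per direction without overlap, and from each other list the genes with an unadjusted p under 0.05 or the smallest p. Names with copies on several chromosomes were not named, and some genes of these lists are not reported here. SRXN1, SLC7A11, the marker genes ALB, KRT19, CDH5 and PTPRC, and UGGT1 were added after their values were seen. The comparison, the lists and the tests were chosen with earlier results of these data known. Alternatives were another pseudocount, other filters, models, scalings and features, a replicate block and leaving out each library.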

Additional observations from a re-analysis of the deposited data

Results flagged for a closer look

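Values that lay far from the other 4 libraries of their group, by the ratio of the gap to the range against Dixon's 95% critical value, were found in 15 of 170 groups of 5 examined (8.82%), where chance gives about 5%. Control replicate 5, the library with the lowest 75th percentile, held 9 of these values, and 8 of them were low: STC2 at 0.176 FPKM (next 0.852), LRAT at 0.139 (next 0.872), SCARA3 at 4.14 (next 7.41), ERO1A at 11.2 (next 18.2), SLC37A2 at 1.46 (next 2.69), CYP7A1 at 0.692 (next 1.30) and MMP2 at 4.46 (next 7.59). LUM was the last of the low values, at 25.7 FPKM (next 53.4), and SNORD17 was high, at 37.2 FPKM (next 0.971).

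Among the treated libraries, 100 pM replicate 5 was apart for MYOF at 32.5 FPKM (next 5.36), ARNT2 at 2.59 (next 7.74), PARP8 at 2.93 (next 4.61) and KDR at 0.572 (next 1.51). ERO1A stood at 20.1 FPKM in 100 pM replicate 3 (next 3.62) and RABGAP1 at 8.23 FPKM in 100 pM replicate 4 (next 1.96). Unnamed transcripts at some of these loci moved opposite to the flagged values. For ARNT2 they were at 6.81 FPKM in 100 pM replicate 5 and at most 0.0137 in the other treated libraries, and the sum, 9.40, lay near the 7.75 to 9.30 of the others. For MYOF the treated sums ran from 50.0 to 61.7 FPKM and for RABGAP1 from 8.28 to 12.4. For ERO1A they ran from 8.81 to 25.5 FPKM, with replicate 3 still the highest. For LRAT unnamed transcripts were at 79.7 FPKM in control replicate 5, inside the range of the other controls, 12.9 to 87.4 FPKM.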

How the results depend on the processing

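No gene was called under any alternative of the gene sums, with or without scaling, and 1 of the transcripts was called when transcripts were tested in their place. The smallest adjusted limma p among them was 0.0512, with unnamed transcripts added and only the 10 libraries compared in the fit. The number of genes at an unadjusted p under 0.05 (116 unscaled, 200 scaled) moved with the setting. It was 1077 and 1173 with every gene above 0 tested, 416 and 416 with array weights, 451 and 263 when the linear model had no moderation and a term for library size, 179 and 389 with only the 10 libraries compared, 259 with quantile normalization, 229 with median-of-ratios scaling, 785 with transcripts, and 159 and 475 with unnamed transcripts added and 10 libraries. Leaving out 1 library gave 105 to 166 unscaled and 165 to 238 scaled. The replicate block gave 0 calls, with 163 and 267 genes unadjusted. The same-number correlations of deviations were 0.169, 0.0579, 0.0504, 0.0833 and 0.0328. Control replicates 1, 3, 4 and 5 correlated best with the 100 pM library of their own number, and control replicate 2 with 100 pM replicate 3. The labels do not state whether libraries of the same replicate number share a batch. The main fit and the exact tests treated the libraries as unpaired. The 75th percentile differed by 0.0716 FPKM, and by -0.126 to 0.207 with 1 library left out. It reversed without control replicate 5 (-0.126) and without 100 pM replicate 2 (-0.00422). The first principal component did not separate the groups in any setting (exact permutation p from 0.278 to 0.889). Of 1058 alternative values of the 46 named genes under 0.05 by unadjusted p in either fit or by the exact test, 1050 kept their sign. The other 8 arose when unnamed transcripts were added, for RHOA (-0.222), VWA8 (0.049), RABGAP1 (0.075) and TBC1D8B (-0.034). The AhR targets at an unadjusted p under 0.05 and higher numbered 4 to 12 over all settings. Depth cannot be read from FPKM, and the read numbers that the study reports did not enter any setting. The 5 libraries per group limited the precision.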

Other observations

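The acute phase genes were highest in replicate 1 of both the control and the 100 pM group. Of the 19 tested genes of that list, 16 (84.2%) had their highest 100 pM value in replicate 1, a library that held the highest value of its group for 4.35% of all tested genes. The median of the list, as log2 level above the control mean, was 1.01 in control replicate 1 and 0.87 in 100 pM replicate 1, and between -0.72 and 0.13 in the other 8 libraries compared. CRP, the C-reactive protein, was at 120 FPKM in control replicate 1 and at 9.30 to 15.4 in the other controls, and at 71.4 FPKM in 100 pM replicate 1 and at 12.5 to 25.4 in the other treated libraries. The serum amyloid gene SAA1 was at 106 and 67.8 FPKM in the same 2 libraries and between 8.80 and 19.2 in the other 8. At the higher concentrations, replicate 1 was at 0.40 (10 nM) and -0.62 (1 µM) on the scale of the list's median, where the median of all tested genes was 0.11 and -0.81. In replicate 1 the median of the list stood above all genes in each of the 4 groups. The pattern was noticed in these data and was not tested.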
